A study of Mus musculus with 6 samples.

Results

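Pigr and 7 genes for Fc receptors of immunoglobulin were followed in whole mouse lung after naphthalene, a compound that injures the conducting airway because club cells turn it into a toxic product. A gene was taken as a member when a probe set carried its symbol and no other in the platform annotation, which gave 8 probe sets for 8 genes (Pigr, Fcamr, Fcgr1, Fcgr3, Fcgr4, Fcgr2b, Fcer1g and Fcgrt) out of 24173 probe sets and 16537 genes. No probe set with several symbols held any of them, and no member was lost to a filter. Single-channel arrays measured 3 wild-type samples, labelled 28, 29 and 30 days after naphthalene, and 3 Falcor-null samples, labelled 31, 32 and 33 days. Falcor is a long non-coding RNA gene beside the transcription factor gene Foxa2. Both groups carried the strain label CD1_C57Bl6_mix and both received naphthalene, so that no untreated lung was compared. The labelled day rises by 1 from each sample to the next, and whether these were the true days is not known. As labelled, day and genotype cannot be told apart. Separate animals are not named in the labels. The p-values therefore cover only how these 6 samples scatter, which could be technical scatter.

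Fc receptors bind the constant part of antibodies. Pigr, the polymeric immunoglobulin receptor, carries dimeric IgA and pentameric IgM, both joined by the J chain, across epithelial cells into mucus, and in the lung it is made mainly by airway epithelium. The Fcgr receptors sit on macrophages, neutrophils, B cells and other leukocytes and bind IgG, those of the activating kind signalling through the Fcer1g chain and the inhibitory one, Fcgr2b, through a motif of its own. Fcgrt, the neonatal Fc receptor, pairs with beta-2 microglobulin and returns IgG and albumin from endosomes to the blood.

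All members but 2 lie on chromosome 1, Fcgr1 being on chromosome 3 and Fcgrt on chromosome 7. On chromosome 1 Pigr and Fcamr lie together, and Fcgr2b, Fcgr4, Fcgr3 and Fcer1g form another group. Pigr and 4 Fcgr genes had lower means on the arrays labelled Falcor-null, as did Fcamr and Fcer1g. Only for Pigr and the 4 Fcgr genes are the bases before the start shown. They are RefSeq sequences of build GRCm38.p6, in which all 8 members had a window, 5′ to 3′ along the gene and ending at the base before the annotated start. For Pigr, 250 bases are given (chr1:130826434-130826683, plus strand), with the E-box CACGTG in capitals, the letters to which USF factors bind. For the others, 100 bases are given, with GAGGAA or its reverse complement TTCCTC in capitals. These letters are a form of site for the myeloid factor PU.1, and other forms were not searched. They do not occur in Fcgr2b, which does not mean that it lacks a PU.1 site. The stretches of 100 bases are those of Fcgr1 (chr3:96293970-96294069, minus strand), Fcgr3 (chr1:171059404-171059503, minus strand), Fcgr4 (chr1:171018826-171018925, plus strand) and Fcgr2b (chr1:170976072-170976171, minus strand).
Pigr: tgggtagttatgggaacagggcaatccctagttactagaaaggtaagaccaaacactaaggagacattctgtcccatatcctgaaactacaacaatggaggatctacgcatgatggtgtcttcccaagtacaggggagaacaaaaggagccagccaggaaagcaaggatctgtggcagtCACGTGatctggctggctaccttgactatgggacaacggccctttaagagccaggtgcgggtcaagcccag
Fcgr1: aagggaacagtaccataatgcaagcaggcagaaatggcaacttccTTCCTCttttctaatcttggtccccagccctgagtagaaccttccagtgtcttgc
Fcgr3: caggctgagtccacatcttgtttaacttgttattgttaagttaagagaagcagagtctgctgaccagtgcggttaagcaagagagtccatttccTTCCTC
Fcgr4: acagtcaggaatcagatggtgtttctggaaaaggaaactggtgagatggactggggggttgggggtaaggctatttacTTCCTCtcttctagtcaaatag
Fcgr2b: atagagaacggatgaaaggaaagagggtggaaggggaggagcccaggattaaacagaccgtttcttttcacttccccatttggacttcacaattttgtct

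Motif letters were searched on both strands in the 250 bases before each start, beside 32851 such windows of RefSeq genes, some genes having several. CACGTG stood in 1 of 8 members, Pigr, with its first base at position -71 from the start, and in 6.02% of all windows. GAGGAA stood in 4 of 8 members (Fcamr, Fcgr1, Fcgr3 and Fcgr4) and in 23.3% of all windows. The matches nearest the start began at positions -35 in Fcamr, -55 in Fcgr1, -6 in Fcgr3 and -22 in Fcgr4. For Fcgr3, whose RefSeq record gives 2 start sites, the other start put the match at -15. The STAT letters TTCNNNGAA were found in 1 of 8 members, Fcgr1, at position -109, and in 7.02% of windows. No match of one motif overlapped another in these windows. A match is a description of letters only.

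The labels were first set against the targeted gene. The Falcor probe set (9030622O22Rik) read 5.05 ± 0.38 in wild type and 6.49 ± 0.28 on the arrays labelled Falcor-null (log2 signal, SD, n = 3 each), higher rather than lower, with an adjusted p of 0.0423 in limma. That call held without wild type replicate 3 and was lost with any other array left out (adjusted p 0.0704 to 0.143). No source used here places this probe set relative to the change that makes the gene null, so every direction below rests on the labels. Lung epithelium was present on all 6 arrays, with Sftpc, the surfactant protein of alveolar type 2 cells, at 13.59 to 13.61 and Scgb1a1, the club cell secretoglobin, at 13.55 to 13.63. Median signals were 6.72 to 6.74 on the wild-type arrays and 6.69 to 6.70 on those labelled Falcor-null. The lowest signals were 3.19 to 3.22 on the wild-type arrays and 2.09 to 2.42 on the others.

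All but Fcgrt of the 8 genes had a lower mean on the arrays labelled Falcor-null, and none passed limma's test at an adjusted p of 0.05. Over all genes, 0.556% passed (92 of 16537) and 49.2% had a lower mean. At an unadjusted p of 0.05, 6 of 8 members were lower, against 7.65% of all genes, and 3 were without Falcor-null replicate 1. The arrays of the groups did not overlap for 4 members (Pigr, Fcgr3, Fcgr2b and Fcer1g), all with the arrays labelled Falcor-null below, as did 10.6% of all genes. The members' median log2 difference was -0.69, against 0.00 (0.0026) over all genes, and 6 were lower by 0.5 or more, as were 2.95% of all genes. In bulk lung, fewer cells of a type and less RNA per cell cannot be told apart.

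**Figure D1:**
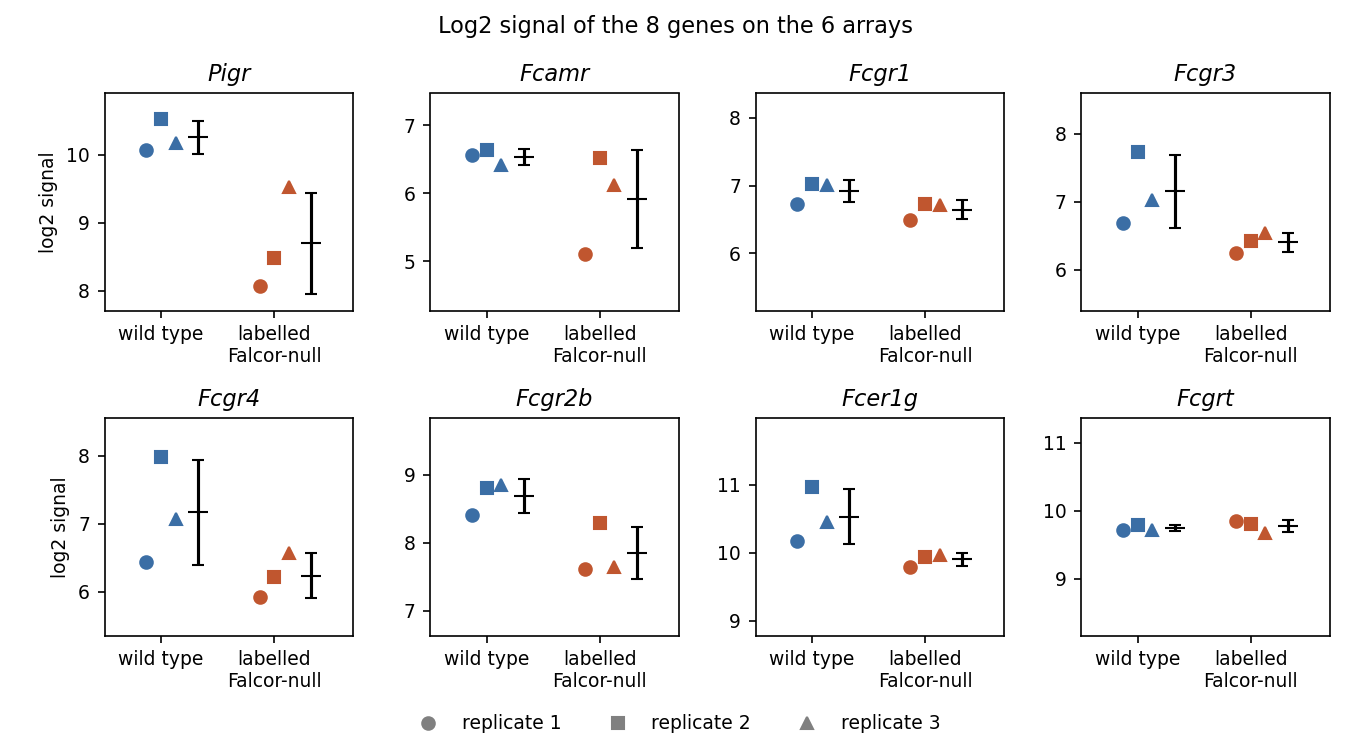
Log2 signal (vertical axis, the same span of 3.2 in each panel) of each gene on the 3 wild-type arrays (blue) and the 3 arrays labelled Falcor-null (orange), with the mean and SD of each group in black. Pigr lay between 10.07 and 10.53 in wild type and between 8.08 and 9.52 on the others, whereas Fcgrt lay between 9.67 and 9.85 on all 6.

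Pigr, the transport receptor, showed the largest difference of the 8. It read 10.07, 10.53 and 10.17 in wild type and 8.08, 8.49 and 9.52 under the Falcor-null label (log2 signal, probe set 17216960). All 3 arrays labelled Falcor-null lay below all wild-type arrays, by at least 0.55, and replicate 3 stood well above its 2 fellows. The means were 10.26 ± 0.24 and 8.70 ± 0.75 (SD, n = 3 each), a log2 difference of -1.56 (SE 0.34, 95% interval -2.35 to -0.77), or 2.95-fold lower. In limma the adjusted p was 0.105 and the unadjusted p 0.0021, so Pigr did not pass. Ordered from the most negative difference, it ranked 34 of 16537 genes. Without Falcor-null replicate 3 the difference was -1.97 with an adjusted p of 0.0277. With any other array left out it lay between -1.25 and -1.65, with adjusted p-values of 0.166 to 0.265.

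Fcamr, the receptor for IgA and IgM on B cells and macrophages that neighbours Pigr, rested on a single array. It read 6.56, 6.63 and 6.41 in wild type and 5.11, 6.51 and 6.13 under the Falcor-null label (log2 signal). The groups overlapped, and replicate 1 of the arrays labelled Falcor-null was 1.41 below the highest of its group. The log2 difference was -0.62 (SE 0.32, limma adjusted p 0.446), and -0.22 without that array (adjusted p 0.646). The list of other genes near Pigr and Fcamr gave no common direction. Of its 8 measured genes 4 were lower and 4 higher, none passing, with a median log2 difference of 0.03, and Fcmr, the IgM receptor of lymphocytes, had the smallest p (difference -0.27, adjusted p 0.353).

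Among the activating IgG receptors, Fcgr4, which binds some of the IgG subclasses, had the largest difference and the widest spread. It read 6.44, 7.99 and 7.07 in wild type and 5.92, 6.22 and 6.57 under the Falcor-null label (log2 signal). The groups overlapped, because wild type replicate 1 lay below Falcor-null replicate 3. The log2 difference was -0.93 (SE 0.36, 95% interval -1.78 to -0.08, limma adjusted p 0.320), and -0.52 without wild type replicate 2 (adjusted p 0.526).

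Fcgr3, a low-affinity receptor of macrophages, natural killer cells and mast cells, read 6.69, 7.74 and 7.03 in wild type and 6.25, 6.43 and 6.54 under the Falcor-null label. The groups did not overlap, and wild type replicate 2 again stood highest. Its log2 difference was -0.75 (SE 0.24, limma adjusted p 0.239), and -0.46 without that array (adjusted p 0.324). Fcgr1, the high-affinity receptor of macrophages and monocytes, read 6.73, 7.02 and 7.01 against 6.49, 6.73 and 6.72. Its groups overlapped, since wild type replicate 1 lay level with Falcor-null replicates 2 and 3, and its difference of -0.27 (SE 0.11, limma adjusted p 0.354) was the smallest of the Fcgr genes in these arrays.

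Fcgr2b, the inhibitory receptor of B cells and macrophages, read 8.40, 8.81 and 8.85 in wild type and 7.61, 8.28 and 7.65 under the Falcor-null label (log2 signal). The groups did not overlap, with a gap of 0.12 that Falcor-null replicate 2 set. The means were 8.69 ± 0.25 and 7.85 ± 0.38 (SD, n = 3 each), a log2 difference of -0.84 (SE 0.20, 95% interval -1.31 to -0.36), with a limma adjusted p of 0.133. Without Falcor-null replicate 2 the difference was -1.05 and the adjusted p 0.0852. The outer parts of Fcgr2b and Fcgr3 resemble each other closely in sequence, and how far their probe sets share signal is not known here.

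The balance of activating to inhibitory receptors was read within each array as the log2 signal of an activating gene minus that of Fcgr2b, set to 0 at the wild-type mean. For Fcgr1 it was 0.64, 0.22 and 0.84 on the arrays labelled Falcor-null, against -0.07 to 0.09 on the wild-type arrays, so that Fcgr1 lay less far below its wild-type mean than Fcgr2b on each of the 3. For Fcgr3 it was 0.16, -0.33 and 0.42, and for Fcgr4 -0.18, -0.55 and 0.44. Both overlapped the wild-type arrays, which ran from -0.28 to 0.46 for Fcgr3 and from -0.44 to 0.70 for Fcgr4. These ratios show unequal change of a pair of probe sets and were not tested.

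Fcer1g, the signalling chain that the activating receptors and the IgE receptor share, read 10.18, 10.97 and 10.45 in wild type and 9.79, 9.94 and 9.97 under the Falcor-null label (log2 signal). The groups did not overlap, with a gap of 0.21, and the arrays labelled Falcor-null lay within 0.18 of one another. The log2 difference was -0.63 (SE 0.19, 95% interval -1.07 to -0.19), or 1.55-fold, with a limma adjusted p of 0.208. Without wild type replicate 2 it was -0.41 (adjusted p 0.284).

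Fcgrt, the neonatal receptor, was the one member with a higher mean. It read 9.71, 9.80 and 9.72 in wild type and 9.85, 9.81 and 9.67 under the Falcor-null label. The groups overlapped fully, and the log2 difference of 0.03 had a 95% interval of -0.15 to 0.22 (SE 0.08, limma adjusted p 0.895), which leaves room for a change of up to that size either way. Its partner B2m gave -0.08 (adjusted p 0.708).

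The members largely shared their highest and lowest wild-type arrays and their lowest array labelled Falcor-null, but not the highest of that group. Wild type replicate 2 was the highest wild-type array for 7 of the 8 members (all but Fcgr2b), as it was for 32.0% of all genes, and wild type replicate 1 the lowest for 7 (all but Fcamr), as for 31.5%. Falcor-null replicate 1 was the lowest of its group for 7 members (all but Fcgrt), as for 31.7% of all genes. The highest of that group was replicate 3 for Pigr, Fcgr3, Fcgr4 and Fcer1g. It was replicate 2 for Fcamr, Fcgr1 and Fcgr2b, and replicate 1 for Fcgrt. The members differed in which group varied more. The 3 genes Fcgr3, Fcgr4 and Fcer1g, and by a little Fcgr1, ranged more widely among wild-type arrays, while Pigr, Fcamr, Fcgr2b and Fcgrt ranged more widely among the arrays labelled Falcor-null.

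Jchain and Ighm, parts of the immunoglobulins that Pigr carries, passed and had larger differences than any of the 8 receptors. Jchain, the chain that joins IgA and IgM into the polymers that Pigr binds, read 11.06, 10.89 and 10.83 against 7.97, 8.31 and 8.14, and fell by 2.78 on the log2 scale (SE 0.11, limma adjusted p 0.000311). Ighm, the heavy chain of IgM, fell by 2.61 by its brightest probe set (SE 0.21, adjusted p 0.0065), and all 7 of its probe sets were lower. Both passed whichever array was left out. Ighg3, the heavy chain of an IgG subclass, read 10.57, 5.53 and 5.28 against 5.37, 5.78 and 7.31, with single arrays high in each group and no call (difference -0.97, adjusted p 0.807). The other 9 chains of this list were not analysed here.

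**Figure D2:**
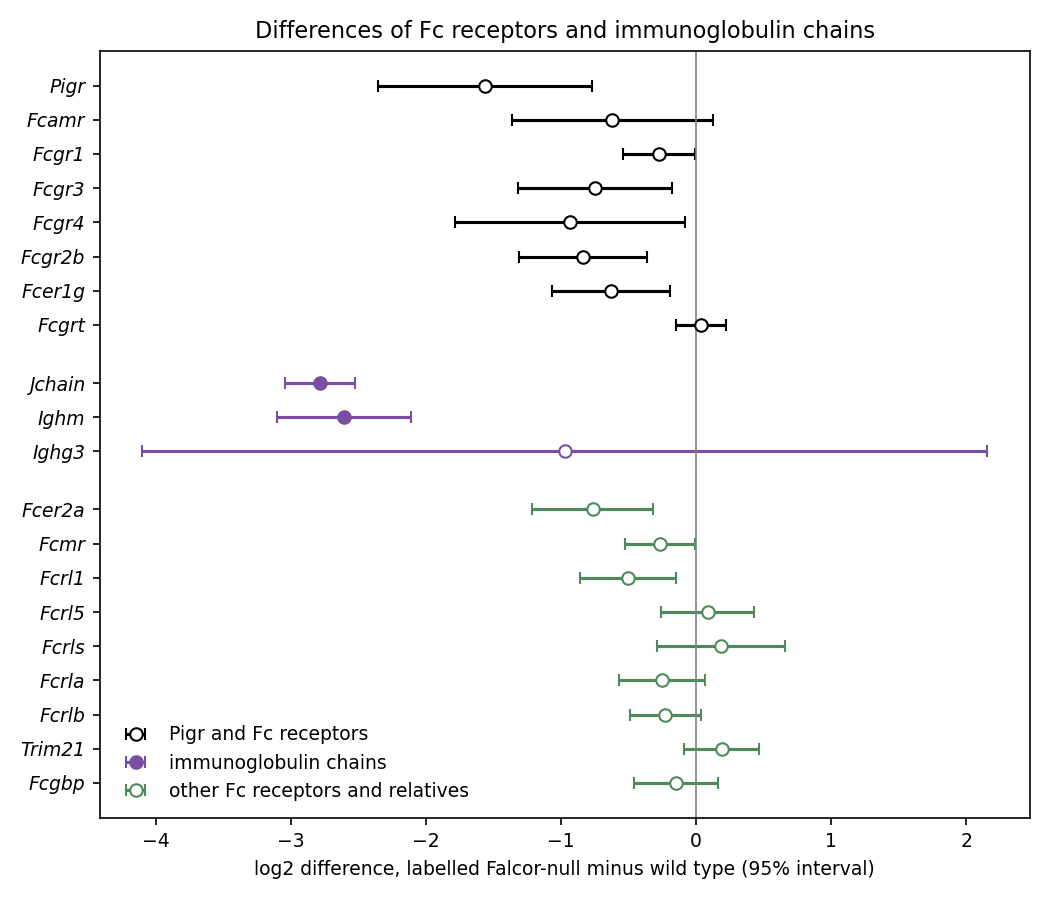
Log2 difference of each gene (horizontal axis, arrays labelled Falcor-null minus wild type, with limma's 95% interval) for Pigr and the Fc receptors, for immunoglobulin chains and for other Fc receptors and relatives. Filled points passed at an adjusted p of 0.05, which only Jchain and Ighm did, and the interval of Pigr ran from -2.35 to -0.77.

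Other Fc receptors and their relatives were lower in 6 of 9 measured genes, none passing, with a median log2 difference of -0.23. At an unadjusted p of 0.05, 3 were lower, against 7.65% of all genes, and none higher. Of these, Fcer2a, the low-affinity IgE receptor of B cells, gave -0.77 (limma adjusted p 0.145), Fcrl1 gave -0.51 (adjusted p 0.214) and Fcmr gave -0.27. Fcer2a read 6.59, 7.29 and 7.30 against 6.29, 6.18 and 6.41, without overlap, and passed without wild type replicate 1 (adjusted p 0.0342). The remaining genes gave differences from -0.25 to 0.19. These were Fcrla (-0.25), Fcrlb (-0.23), the mucus protein Fcgbp (-0.15), Fcrl5 (0.09), Fcrls (0.18) and Trim21 (0.19), a cytosolic antibody receptor. The list of genes beside the low-affinity Fcgr genes gave a median of -0.10, with 12 of 15 lower and none passing, Apoa2 having the smallest p (difference -0.38, adjusted p 0.170).

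Receptors that signal through Fcer1g, with its sister adaptors, were lower in 7 of 7 measured genes, none passing, with a median of -0.53. Clec4e, a lectin receptor for mycobacterial glycolipid, gave the largest difference (-1.22, limma adjusted p 0.0997) and passed without wild type replicate 1 (-1.49, adjusted p 0.0423). Its relative Clec4d gave -0.97 (adjusted p 0.134) and Tyrobp, the adaptor most like Fcer1g in use, -0.71 (adjusted p 0.253).

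In the signalling cascade, 12 of 14 measured activating genes and 8 of 9 inhibitory genes were lower, with medians of -0.28 and -0.21. Of the activating genes, 2 passed and both fell, where 0.460% of all genes passed as lower. They were the scaffolds Lcp2 (-0.92, SE 0.14, limma adjusted p 0.0477) and Lat (-0.65, SE 0.09, adjusted p 0.0324), which T cells also use. Lcp2 kept its call only without wild type replicate 1 and lost it with any other array left out (-0.81 to -0.98, adjusted p 0.0853 to 0.155), as it did with arrays centred on their medians (adjusted p 0.0534), with a second quantile normalization (0.0685), with every probe set tested (0.0509) and with all probe sets of the table (0.0525). Lat lost its call with each array left out in turn (-0.61 to -0.71, adjusted p 0.0541 to 0.124). Among genes that did not pass, the small GTPase Rac2 gave -0.68 (adjusted p 0.0579). The phosphatase Inpp5d, through which Fcgr2b inhibits, gave -0.52 (adjusted p 0.0542), and the phosphatase Ptpn6 gave -0.51 (adjusted p 0.0854). Rac2 and Inpp5d passed with an intensity trend in the variance (adjusted p 0.0268 and 0.0253) and with genes dim below the 30th percentile (0.0424 and 0.0357) or below the median (0.0366 and 0.0281) left out.

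None of the measured genes upstream of or alongside Pigr passed. Regulators of its transcription were lower in 8 of 12 measured genes, none passing, with a median of -0.08. The cytokine receptor Il17ra had the smallest p (difference -0.41, adjusted p 0.133), followed by Tnfrsf1a (-0.24, adjusted p 0.226), while Usf1 and Usf2, whose E-box letters stand before Pigr, gave 0.03 and -0.03 (adjusted p 0.917 and 0.938; chosen after their values were seen). The transcytosis genes, with B2m, had 6 of 11 lower, none passing, and a median of 0.00 (-0.0048). Yes1, a kinase of Pigr transcytosis, gave 0.21 (adjusted p 0.275) and Rab17, a GTPase of epithelial transcytosis, 0.39 (adjusted p 0.317).

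Most markers of the cells that carry these receptors had lower means on the arrays labelled Falcor-null, where 49.2% of all genes did. Of B and plasma cell markers 2 of 9 passed as lower, and of natural killer and T cell markers 3 of 8, against 0.460% of all genes. In the other leukocyte lists none passed. The lists were chosen with earlier results known, and the markers' part in the members' differences was not tested. Macrophage markers were lower in 13 of 14 genes, none passing, with a median of -0.50. The list's mean log2 signal was 8.67 to 9.11 in wild type and 8.14 to 8.46 on the arrays labelled Falcor-null. Chil3, a chitinase-like protein of alveolar macrophages, gave -1.12 (adjusted p 0.0748; 0.0460 with an intensity trend and 0.0413 without wild type replicate 1), Pparg -0.50 (adjusted p 0.0854) and C1qa -0.48 (adjusted p 0.105). Monocyte markers had 6 of 9 lower and a median of -0.25, with list means of 8.17 to 8.28 against 7.90 to 8.17. The largest difference of that list was a rise, 0.74 for Nr4a1 (limma adjusted p 0.329), with overlapping groups. Treml4 (0.19) and Ace (0.07) were also higher, and these 3 genes were chosen after their values were seen. Neutrophil markers had 7 of 7 lower and a median of -0.88, with means of 7.29 to 8.64 against 6.56 to 6.84. The mean of the neutrophil list was highest on wild type replicate 3.

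B and plasma cell markers were lower in 8 of 9 genes (means 7.02 to 7.21 against 6.61 to 6.64, median -0.41), with Mzb1 (-0.85, adjusted p 0.0147) and Cd79a (-0.75, adjusted p 0.0282) passing. Natural killer and T cell markers were lower in 8 of 8 (means 6.87 to 7.21 against 6.39 to 6.50, median -0.39). The T cell genes Cd3e (-1.20, adjusted p 0.0095), Cd4 (-1.23, adjusted p 0.0131) and Cd3g (-1.15, adjusted p 0.0324) passed, while Ncr1, which marks natural killer cells and pairs with Fcer1g, gave -0.16 (adjusted p 0.538). Dendritic cell markers had 5 of 7 lower, a median of -0.30 and means of 6.58 to 7.05 against 6.52 to 6.64. Of the mast cell and basophil markers only Kit (0.02) and Hdc (0.48) were measured, and neither passed. Among these 5 passing genes, Cd3e was lost without Falcor-null replicate 2 (adjusted p 0.0529) and Cd4 also without wild type replicate 2 (adjusted p 0.0546), Mzb1 was lost without 3 of the arrays, Cd79a without 5 and Cd3g with every array left out in turn.

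Epithelial markers went both ways, and their part in the difference of Pigr was not tested. Airway secretory and ciliated markers were lower in 5 of 13 genes, with a median of 0.02, and list means of 8.70 to 9.21 against 8.72 to 8.83. Bpifa1, a secreted defence protein, was the one to pass (-1.51, adjusted p 0.0383), and it lost its call with each array left out in turn (adjusted p 0.0554 to 0.131). Reg3g gave -1.70 (limma adjusted p 0.303) and Muc5ac -0.51 (adjusted p 0.361), both with overlapping groups. Muc5b gave -0.69 (adjusted p 0.607; chosen after its values were seen), but its wild type replicate 3 (7.70) lay below every array labelled Falcor-null. The list's 8 higher genes rose by at most 0.19, and none of them passed. Alveolar markers had 3 of 9 lower and a median of 0.06, with means of 11.40 to 11.47 against 11.43 to 11.54. Endothelial markers, from cells in which Fcgrt is also made, were higher in 9 of 9, none passing, with a median of 0.17, and Tie1 (0.47) and Cldn5 (0.43) had adjusted p-values of 0.101.

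**Figure D3:**
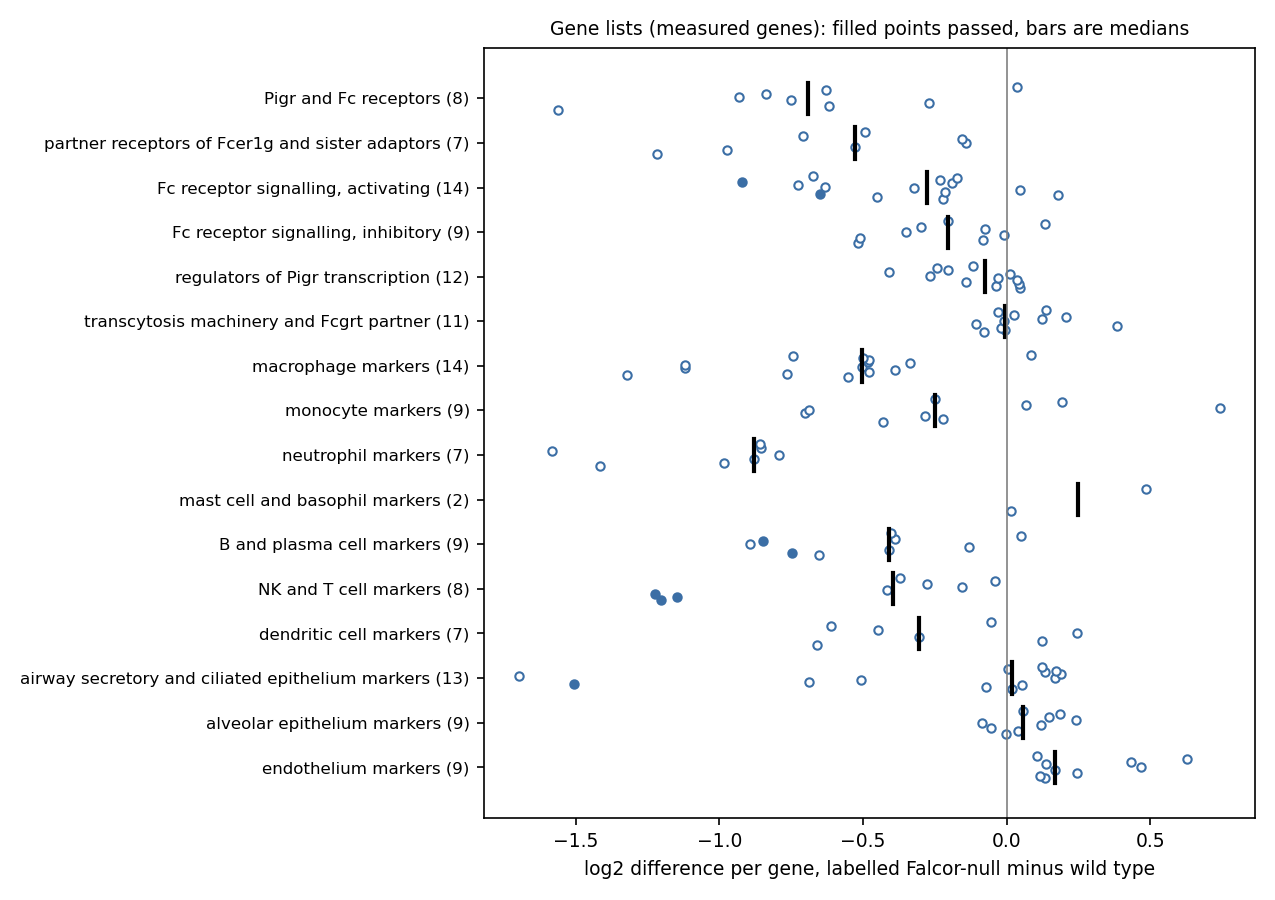
Log2 difference (horizontal axis, arrays labelled Falcor-null minus wild type) of each measured gene in each list, the number of genes in parentheses, with the list's median as a black bar and genes that passed filled. The members' median of -0.69 lay between those of the neutrophil list (-0.88) and of the Fcer1g partners (-0.53), and the epithelial lists lay near 0.

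The genes whose pattern came nearest to Pigr over the 6 arrays were found by the mean absolute log2 distance. Each gene's own mean was first taken off. Genes found so tend to share the array order of Pigr through the choice itself. Of 122 named genes with a range at least 0.75 of that of Pigr (2.45), the nearest were Igkv1-133, a kappa light chain variable segment (distance 0.16), Ccl17, a chemokine for T cells (0.19), and Ctsk, a protease of macrophages (0.21). The kappa segment resembles others in sequence, so its signal cannot be assigned with certainty. Igkv1-133 read 8.01, 8.22 and 7.74 against 5.91, 5.86 and 7.09 (difference -1.70, adjusted p 0.0817), with Falcor-null replicate 3 high as for Pigr, and passed without that array (-2.10, adjusted p 0.0120). Ccl17 fell by 1.81 (adjusted p 0.0212; the call was lost without any 1 of the 3 wild-type arrays or Falcor-null replicate 2) and Ctsk gave -1.35 (adjusted p 0.123).

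For Fcer1g, whose range was 1.17, the nearest of 938 genes were Myo5a, a myosin motor (0.048), Cstb, an inhibitor of cathepsins (0.058), and Depp1 (0.062). Each read highest on wild type replicate 2, which the choice by pattern favours. None of these genes passed in limma (differences -0.61, -0.54 and -0.56, adjusted p 0.266, 0.245 and 0.287).

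**Figure D4:**
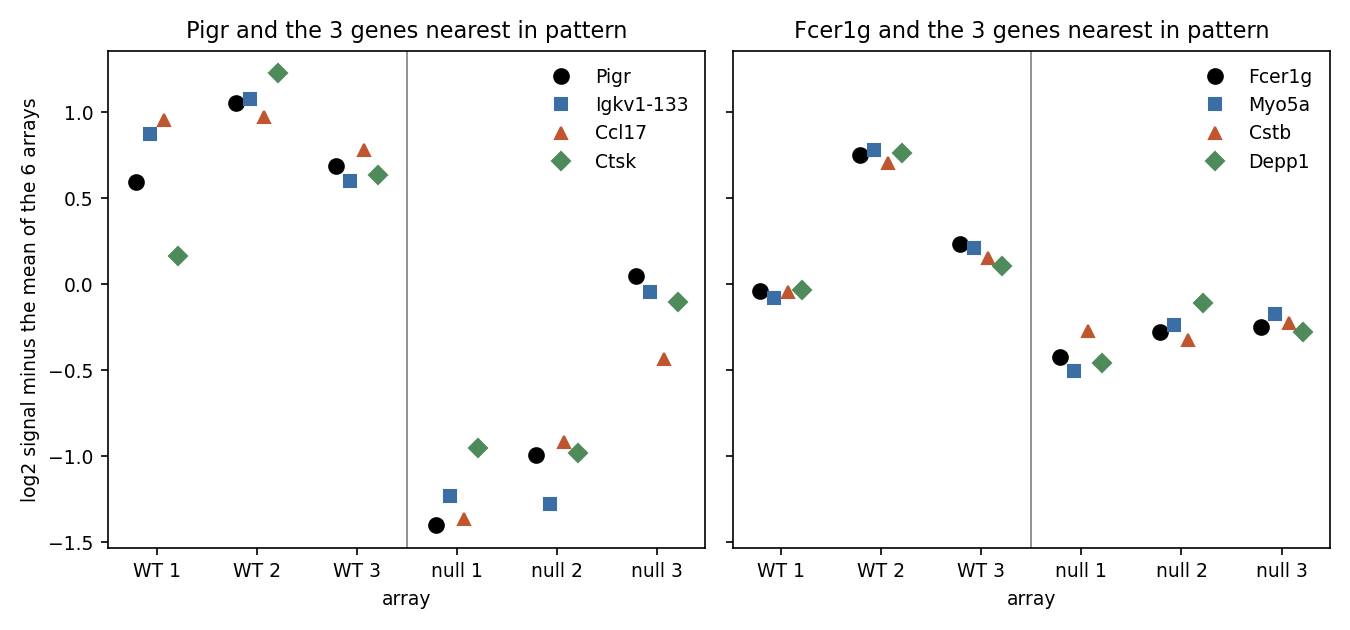
Log2 signal minus the gene's mean over the 6 arrays (vertical axis) for Pigr and Fcer1g (black) and for the 3 genes nearest to each in pattern, by array (WT, wild type; null, labelled Falcor-null). Falcor-null replicate 3 stood above its fellows for Pigr and its nearest genes. Wild type replicate 2 stood highest for Fcer1g and its nearest genes. Such likeness follows from how the nearest genes were picked.

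**Figure D5:**
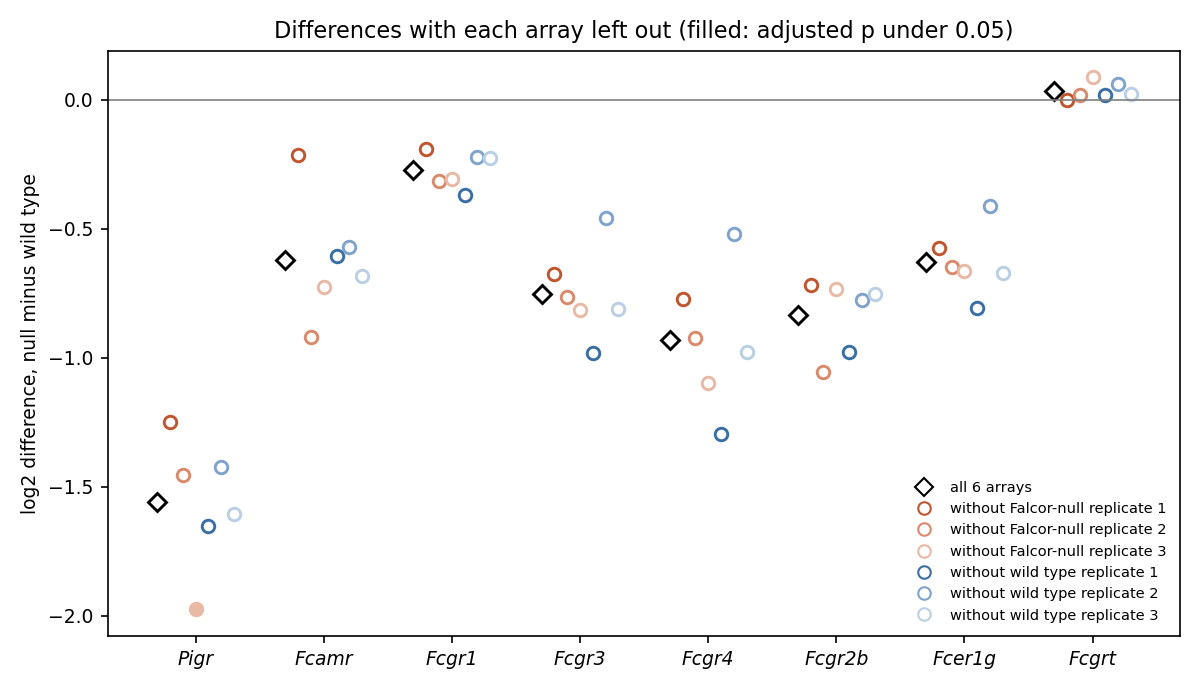
Log2 difference of each member (vertical axis) with all 6 arrays (diamonds) and with each array left out (circles), filled where the adjusted p was under 0.05. The one filled point is Pigr without Falcor-null replicate 3 (-1.97).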

How the data were processed

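The authors deposited log2 signals per probe set, made with RMA in oligo per the submitters' processing notes, which also list limma. RMA is meant to make the arrays' distributions alike, although the lowest signals here differed between the groups. RMA also compresses differences near the ends of the scale. Background levels and the probe sets' genome build are not given in the sources used here. Of 24173 probe sets, 17476 had exactly 1 gene symbol (1308 had several and 5389 none in the annotation used), and the brightest of a gene stood for it. All 16537 genes were compared by limma 3.58.1 in R 4.3.3 (lmFit and eBayes, two-sided, no covariate, Benjamini-Hochberg over all genes, adjusted p under 0.05), on scripts tested on simulated data. With 3 arrays against 3, an exact permutation test cannot go below 0.1. The members and the lists were chosen with earlier results of these data known. Named were the members, every measured immunoglobulin chain and other Fc receptor, Falcor, up to 3 genes of smallest p per list, and the 3 nearest in pattern to Pigr and to Fcer1g. Bpifa1, Muc5b, Nr4a1, Ace, Treml4, Sftpc, Scgb1a1, B2m, Ncr1, Tyrobp, Usf1 and Usf2 have their roles as list members or checks. Those of them outside the rule were chosen after their values were seen. Alternatives were a replicate block, other scalings, variance models, dim filters and probe set rules, a threshold of 0.10 and each array left out. Figures used matplotlib 3.10.9 in Python 3.11.15.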

Additional observations from a re-analysis of the deposited data

How the results depend on the processing

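None of the 8 members passed under any alternative except Pigr without Falcor-null replicate 3, so that the count of members passing ran from 0 to 1 with single arrays left out. Fcamr and Fcgr4 were removed by the filter at the median signal. Over all genes, 92 passed, against 171 with all probe sets of the table tested, 280 at a threshold of 0.10 and 18 to 89 with single arrays left out. With the replicate block 32 genes and none of the members passed, but same-numbered arrays did not deviate together (correlations 0.022, -0.0026 and -0.081), so the numbers were not taken as pairs. With that block Falcor lost its call (limma adjusted p 0.119), as did Ccl17 (0.067), Lat (0.0846) and Mzb1 (0.067). Cd79a (0.0925), Cd3g (0.106) and Bpifa1 (0.104) lost theirs too. Directions turned only for values near 0 or carried by 1 array, with single arrays left out: Fcgrt ran from -0.00086 to 0.086, Kit from -0.10 to 0.077 (-0.013 without wild type replicate 3), Fcrl5 from -0.060 to 0.21 and Ighg3 from -1.90 to 0.75. The cause was not tested. Of the 76 named genes, 12 passed, and 54 of their 214 values under the 18 alternatives lost the call, over 10 genes (all but Jchain and Ighm). The other named genes had 1124 values, of which 24 gained a call, 10 of them at the threshold of 0.10. The genes gaining one at 0.05 were Pigr, Igkv1-133, Fcer2a, Clec4e, Cd14, Rac2, Inpp5d and Chil3, the last also with the replicate block (adjusted p 0.0346). The number of arrays limits precision, and no measure of background was used for any probe set.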

Other observations

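The 2 probe sets of Ighg3 did not follow each other. The brighter (17284344) read 10.57, 5.53 and 5.28 in wild type and 5.37, 5.78 and 7.31 under the Falcor-null label, while the other (17284614) read 4.996, 5.41 and 6.51 against 4.51, 4.80 and 4.47. Wild type replicate 1 was thus the highest of the 6 arrays on one and wild type replicate 3 on the other. Of the 7 Ighm probe sets, 17284349 also stood high on wild type replicate 1 alone (11.20, 9.38 and 9.25 against 9.03, 9.32 and 8.94).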
